A study of Mus musculus with 4 samples.

Results

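The 33 genes described here encode the enzymes of the citrate cycle, the carrier and dehydrogenase complex that bring pyruvate into it, and the enzymes that refill or drain its intermediates. They were taken by gene symbol from a table of 16051 mouse genes; the rule itself uses no measured value, but the list was drawn up with earlier results of these data known. All 33 were found and all 33 were among the 10243 genes tested, with a mean over the 4 libraries of at least 8.44 FPKM (fragments per kilobase, scaled for depth) for each gene. The question was how the transcripts of each step, and of cytosolic against mitochondrial enzymes, differed between cells given risperidone, an antipsychotic drug, and control cells.

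All 4 libraries were made from 3T3-L1 cells, a mouse embryonic fibroblast line (strain NIH SWISS in the labels) that can be turned into fat-storing cells. Before treatment, every culture had been taken through the same differentiation course with isobutyl-methylxanthine, dexamethasone and insulin. The control cells (RNC) then received DMSO, the solvent, and the treated cells (RIS) received 100 μM risperidone, for 48 h, with 2 libraries each. In the labels the control is called untreated, embryo is named as the tissue and the extraction text speaks of retina; the study's methods name DMSO and 3T3-L1 and were followed here. Each library held RNA pooled from 3 cultures of 1 cell line, so the spread between libraries is no measure of that between single cultures. It may be technical, and p-values refer to it alone.

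The libraries held 15883712 to 16374119 counts, and a count of 0 allowed up to 0.183 to 0.189 CPM (counts scaled to library size). Of 11 adipocyte markers, 5 had at most 3 counts in every library, among them Adipoq (adiponectin) with 1, 0, 1 and 1 counts, while Lpl (lipoprotein lipase) had 11967 to 15569 and Pparg 345 to 388. Fabp4, a fatty acid carrier of fat cells, had 1079 and 1360 counts with DMSO and 492 and 586 with risperidone. The name adipocyte is therefore not used for these cells below. The summed adipocyte markers were at 976 and 1052 CPM with DMSO and 832 and 837 CPM with risperidone, and their part in the results was not tested. All 12 kidney markers were highest in risperidone replicate 2, with a summed count of 3441 against 70 to 105 elsewhere. The summed retina markers had 51 to 57 counts in every library, and those of skeletal muscle 8 to 14. Those of liver and red cells were also highest in risperidone replicate 2. They had 42.67 and 19.63 counts there, against at most 3.46 and 2 elsewhere.

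The citrate cycle joins acetyl-CoA to oxaloacetate in the mitochondrial matrix and oxidises the product back to oxaloacetate, yielding reduced carriers for the respiratory chain. In fat cells, citrate also leaves the mitochondrion and gives cytosolic acetyl-CoA for fatty acid synthesis, and pyruvate carboxylase replaces the oxaloacetate that is lost. Several steps exist as a cytosolic and a mitochondrial isoenzyme, among them isocitrate dehydrogenase, malate dehydrogenase and aspartate aminotransferase.

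With risperidone, 23 of the 33 transcripts rose, where 32.1% of all genes tested did, and 3 fell, where 32.2% did. After rescaling to TPM (transcript shares with a common sum), 7 members were called higher, against 15.0% of all genes, and 7 lower, against 51.7%. Cs, which encodes citrate synthase, the entry step of the cycle, rose 1.88-fold, and Ogdh, Idh3b, Mpc1 and Idh3a rose 1.53- to 1.66-fold. Idh1, the cytosolic NADP isocitrate dehydrogenase, fell by 64.5%, and Pcx, pyruvate carboxylase, fell by 23.7%. The calls of these 7 genes, though not of most others, held in all 16 alternatives run.

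The promoters of Cs and Idh1, the members with the largest rise and the largest fall, are shown because a reader may want to set them side by side. The sequences are RefSeq's for GRCm38.p6, 250 bases upstream of a transcript start, 5′ to 3′ on the gene's strand. Capitals mark CCAAT, a box bound by the factor NF-Y, on either strand.
Cs promoter, chr10:128337477-128337726, plus strand: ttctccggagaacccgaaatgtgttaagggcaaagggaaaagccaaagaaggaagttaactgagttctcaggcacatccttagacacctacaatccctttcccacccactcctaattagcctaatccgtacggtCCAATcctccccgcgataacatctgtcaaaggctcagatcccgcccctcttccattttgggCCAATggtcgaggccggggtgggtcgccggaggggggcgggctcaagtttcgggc
Idh1 promoter, chr1:65186480-65186729, minus strand: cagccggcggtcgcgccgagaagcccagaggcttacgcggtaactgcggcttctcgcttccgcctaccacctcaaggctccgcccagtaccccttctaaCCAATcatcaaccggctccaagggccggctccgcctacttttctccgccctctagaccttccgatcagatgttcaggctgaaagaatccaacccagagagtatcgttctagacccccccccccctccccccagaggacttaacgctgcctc
The Cs stretch holds CCAAT at 116 and 55 bases upstream of its start, and the Idh1 stretch holds it at 151 bases. RefSeq gives a second Idh1 start, whose upstream bases, chr1:65179143-65179392, hold no CCAAT and are not shown. RefSeq windows of 300 bases, from 250 before to 50 after a start, were given for 30 of the 33 members, 39 windows in all. CCAAT stood in 66.7% of these windows, against 37.4% of all 32851 windows counted, and 20 of the 30 members had it. The windows counted leave out a chromosome on which no member lies. Ogdh had several overlapping windows, so that the members' windows are not independent. The NRF1 core GCATGCGC stood in 10.3% of the members' windows and 2.71% of all, and the YY1 core GCCATNTT in 10.3% and 6.05%. The ERR element TNAAGGTCA stood in 2.56% and 1.28%. Motifs were read on both strands, none was tested, and a match is a string of letters, not a bound site.

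Across the whole set, 23 of 33 members (69.7%) rose and 3 (9.09%) fell at an adjusted p under 0.05 (edgeR, quasi-likelihood test, Benjamini-Hochberg over all 10243 genes), where 32.1% of all genes tested rose and 32.2% fell. The 3 that fell were Idh1, Pcx and Pdhx, and the 7 that did not pass were Idh3g, Suclg1, Suclg2, Mdh1, Pdk2, Mpc2 and Glud1. The members' median log2 fold change was 0.19, and that of all genes tested was 0.000442. In CPM scaled by edgeR's TMM factors, both risperidone libraries lay above both DMSO libraries for 25 members and below for 6, against 41.2% and 41.7% of all genes, and the libraries overlapped for Suclg1 and Pdk2. In bulk RNA, fewer cells of a type and less RNA per cell cannot be told apart.

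The members' direction has to be read against the scaling between libraries. After rescaling to TPM, the median of all genes was -0.22 and that of the members -0.05, and limma called 7 members higher and 7 lower, against 15.0% and 51.7% of all genes. Of the 26 members called by edgeR, 8 changed sign under TPM. With library size alone, 15 members were higher and 6 lower, against 24.4% and 39.9% of all genes, and limma on FPKM gave 15 and 7, against 23.6% and 38.8%. The members' median lay above that of all genes by 0.14 to 0.22 in every setting run, TPM included. Without risperidone replicate 2, the library with kidney transcripts, the members' median was 0.20 and that of all genes -0.0054. That fit holds 1 risperidone library, so its spread comes from the DMSO libraries alone. The log2 ratio of risperidone replicate 2 over 1 was between -0.17 and 0.19 for every member.

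**Figure D1:**
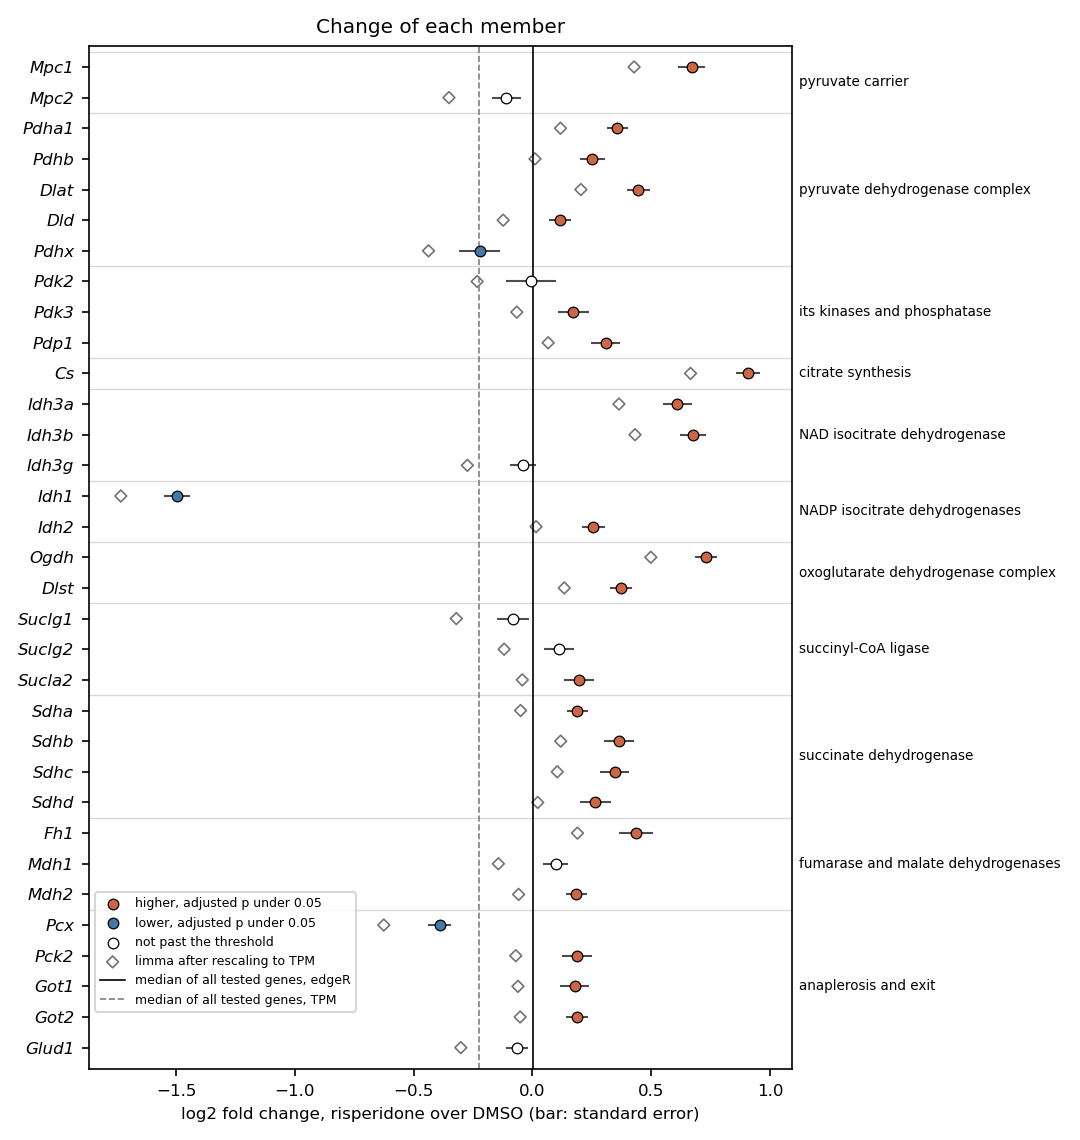
Log2 fold change of each member (risperidone over DMSO, 2 libraries each, x axis) by role, as points with standard errors from edgeR, beside limma estimates after TPM rescaling as open diamonds. The solid line is the median of all genes tested (0.000442) and the dashed line that under TPM (-0.22); Idh1 lies far left of the others in both, and the diamonds lie to the left of the points throughout.

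At the entry of pyruvate, 1 of the 2 subunits of the mitochondrial pyruvate carrier passed the test. Mpc1 was at 78.6 and 85.5 CPM in the DMSO libraries and at 135 and 127 CPM in the risperidone libraries. Both risperidone libraries lay well above both controls, and Mpc1 rose by 0.67 on the log2 scale (SE 0.0567, edgeR adjusted p = 2.38e-06). Mpc2, the partner without which the carrier does not form, was at 32.5 and 31.2 CPM with DMSO and 30.3 and 28.8 CPM with risperidone. Its log2 fold change was -0.11 (SE 0.0626) and did not pass (edgeR adjusted p = 0.146), although it was called lower in 6 of 16 alternatives, all of them other scalings or offsets (-0.35 under TPM). Within a library, where scaling between libraries drops out, the log2 ratio of Mpc1 to Mpc2 counts was 1.36 ± 0.128 (SD, n = 2) with DMSO and 2.14 ± 0.0110 with risperidone.

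The pyruvate dehydrogenase complex turns pyruvate into acetyl-CoA. Of its 5 members, 4 rose and 1 fell, while under TPM only Dlat was called higher and Pdhx lower. Dlat, the acetyl-transferring core (E2), was at 102 and 99.5 CPM with DMSO and 136 and 139 CPM with risperidone, and rose by 0.45 (SE 0.0475, edgeR adjusted p = 1.28e-05). Pdha1, the alpha subunit of the pyruvate-decarboxylating E1, was at 238 CPM in both DMSO libraries and at 304 and 305 CPM with risperidone. For both genes the replicates were nearly equal and the groups stood clearly apart, and the log2 fold change of Pdha1 was 0.36 (SE 0.0446). Pdhb, the E1 beta subunit, rose by 0.25 (SE 0.0514). Dld, the lipoamide dehydrogenase that this complex shares with the oxoglutarate complex, was at 125 and 126 CPM against 137 and 135 CPM. Its difference, 0.12 (SE 0.0455, edgeR adjusted p = 0.0436), was the smallest of those called, kept its call in only 4 of 16 alternatives and was -0.12 under TPM. Pdhx, which anchors that dehydrogenase to the core, was the complex's only lower member, at 22.1 and 23.1 CPM with DMSO and 18.3 and 20.4 CPM with risperidone (log2 fold change -0.22, SE 0.0870, edgeR adjusted p = 0.0434). The call of Pdhx held in 11 of 16 alternatives and was lost with DESeq2, with no filter and without DMSO replicate 1 (-0.25), DMSO replicate 2 (-0.19) or risperidone replicate 1 (-0.14). That of Dld was lost without the same 3 libraries (0.11, 0.13 and 0.11).

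The complex is switched off by pyruvate dehydrogenase kinases and on by phosphatases. Pdk2 was at 17.2 and 18.9 CPM with DMSO and 16.8 and 19.1 CPM with risperidone, overlapping, with a log2 fold change of -0.01 (SE 0.103, edgeR adjusted p = 0.965). Pdk3 was at 61.4 and 57.5 CPM against 66.6 and 67.4 CPM, a rise of 0.17 (SE 0.0639, edgeR adjusted p = 0.0344). The call of Pdk3 held in only 7 of 16 alternatives and was lost with DESeq2, among others. Its value turned to -0.07 under TPM and was 0.13 without DMSO replicate 2. Pdp1, the catalytic phosphatase, rose by 0.31 (SE 0.0621), from 41.7 and 43.2 CPM to 53.6 and 51.5 CPM. Of these 3 regulators, only Pdp1 kept a positive value under TPM (0.07), and it was not called there.

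Cs was at 262 and 266 CPM with DMSO and at 511 and 480 CPM with risperidone. Both risperidone libraries lay far above both controls, which were nearly equal, and its log2 fold change of 0.91 (SE 0.050, edgeR adjusted p = 1.34e-07) was the largest rise of any member. Leaving out 1 library at a time gave 0.86 to 0.95, and TPM scaling gave 0.67. The gene lies on chr10:128337727-128362482 (Cs, NCBI Gene 12974, GRCm38.p6).

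Isocitrate dehydrogenase was the step with the widest range of fold changes. The NAD-linked mitochondrial enzyme, which drives the cycle forward, is built from 3 subunits. Idh3a, the catalytic alpha subunit, was at 54.2 and 57.4 CPM with DMSO and 84.5 and 85.7 CPM with risperidone (0.61, SE 0.0617, edgeR adjusted p = 8.94e-06). Idh3b, the beta subunit, was at 93.8 and 99.3 CPM against 160 and 149 CPM (0.68, SE 0.0542, edgeR adjusted p = 1.55e-06). Idh3g, the gamma subunit, was at 86.4 and 88.8 CPM against 84.6 and 86.0 CPM, a log2 fold change of -0.04 (SE 0.0540, edgeR adjusted p = 0.548). Alpha and beta rose while gamma did not pass, except that TPM and FPKM scaling called it lower. The log2 ratio of Idh3a to Idh3g counts was -0.65 ± 0.0294 (SD, n = 2) with DMSO and -0.00 ± 0.00229 with risperidone, whereas that of Idh3a to Idh3b differed by -0.07, with -0.0030 without risperidone replicate 1 and -0.13 without risperidone replicate 2.

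The NADP-linked enzymes work in parallel, Idh1 in the cytosol, where it makes NADPH, and Idh2 in mitochondria. Idh1, on chr1:65158616-65186479 (NCBI Gene 15926), was at 902 and 885 CPM with DMSO and at 303 and 331 CPM with risperidone. Both risperidone libraries lay far below both controls. The log2 fold change was -1.50 (SE 0.0551, edgeR adjusted p = 1.13e-08), the largest change of any member. Idh2 was at 152 and 149 CPM with DMSO and 185 and 175 CPM with risperidone, a rise of 0.26 (SE 0.0479, edgeR adjusted p = 0.000743) that was 0.02 and not called under TPM. Of the FPKM of Idh1 and Idh2 together, Idh1 made up 81.4% in both DMSO libraries and 54.7% and 58.2% in the risperidone libraries.

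The oxoglutarate dehydrogenase complex makes succinyl-CoA. Ogdh, its E1 and rate-setting subunit, was at 176 and 170 CPM with DMSO and 292 and 282 CPM with risperidone, a rise of 0.73 (SE 0.0467, edgeR adjusted p = 3.22e-07). Dlst, the succinyl-transferring E2, was at 136 and 137 CPM against 173 and 180 CPM, a smaller rise of 0.37 (SE 0.0465, edgeR adjusted p = 3.93e-05). With Dld, given above, all 3 members of this complex were called higher, with values descending from E1 to the shared E3, though under TPM only Ogdh was called higher.

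Succinyl-CoA ligase makes a nucleotide triphosphate at the next step, and 1 of its 3 members passed. Its shared alpha subunit Suclg1 was at 75.4 and 84.3 CPM against 75.8 and 75.0 CPM, overlapping, with a log2 fold change of -0.08 (SE 0.0667, edgeR adjusted p = 0.294) that was -0.16 without DMSO replicate 1 and -0.00062 without DMSO replicate 2. Suclg2, the GTP-specific beta subunit, had 0.11 (SE 0.0619) and did not pass either (edgeR adjusted p = 0.137). Suclg2 was called higher in 3 of 16 alternatives, with either of the length offsets and without risperidone replicate 1 (0.16), and was at 0.059 without risperidone replicate 2. Sucla2, the ADP-forming beta subunit, was called at 0.20 (SE 0.0626, edgeR adjusted p = 0.0178) but was -0.04 under TPM and not called without DMSO replicate 2 (0.15). Under TPM, limma called Suclg1 lower (-0.32) and neither of the others, and Suclg1 was called lower in 6 of the 16 alternatives, all of them other scalings or offsets.

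Succinate dehydrogenase is both a cycle enzyme and complex II of the respiratory chain, and all 4 of its subunits were called higher, though none was under TPM. The iron-sulfur subunit Sdhb was at 48.5 and 49.5 CPM with DMSO and 63.1 and 62.9 CPM with risperidone, 0.36 on the log2 scale (SE 0.0627, edgeR adjusted p = 0.000421). The membrane anchors Sdhc and Sdhd rose by 0.35 (SE 0.0603) and 0.26 (SE 0.0647). Sdha, the flavoprotein, rose by 0.19 (SE 0.0453, edgeR adjusted p = 0.00369), which became -0.05 under TPM and was not called without DMSO replicate 1 (0.16). Inside each library the log2 ratio of Sdha to Sdhb was 1.94 ± 0.0118 (SD, n = 2) with DMSO and 1.76 ± 0.00520 with risperidone. This ratio is not corrected for trends with gene length or GC. With length offsets the log2 fold changes of Sdha and Sdhb were 0.187 and 0.250, and with length and GC offsets 0.201 and 0.237.

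Fh1, fumarase, which serves both cytosol and mitochondria from a single gene, was at 50.5 and 49.3 CPM with DMSO and 71.3 and 63.6 CPM with risperidone. It rose by 0.44 (SE 0.0717, edgeR adjusted p = 0.000304) and kept its call in all 16 alternatives. Mdh2, the mitochondrial malate dehydrogenase, was at 189 and 193 CPM against 216 and 218 CPM, and its rise of 0.18 (SE 0.0449, edgeR adjusted p = 0.00401) was -0.06 under TPM and not called without DMSO replicate 1 (0.17). Mdh1, the cytosolic form, was at 131 and 133 CPM against 135 and 147 CPM, a log2 fold change of 0.10 (SE 0.0530, edgeR adjusted p = 0.129) that was -0.14 under TPM. Mdh1 was called higher without risperidone replicate 1 (0.16) and was at 0.032 without risperidone replicate 2.

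Among the enzymes that refill and drain the cycle, Pcx stood apart. Pcx makes oxaloacetate from pyruvate in mitochondria and lies on chr19:4510472-4621752 (NCBI Gene 18563). It was at 561 and 571 CPM with DMSO and 424 and 439 CPM with risperidone, a log2 fold change of -0.39 (SE 0.0477, edgeR adjusted p = 3.48e-05) that was -0.63 under TPM. Pck2, the mitochondrial phosphoenolpyruvate carboxykinase, was at 62.2 and 65.5 CPM against 71.9 and 73.6 CPM (0.19, SE 0.0617, edgeR adjusted p = 0.0201, and -0.07 under TPM). The aspartate aminotransferases of the malate-aspartate shuttle had nearly equal fold changes. Got1 in the cytosol was at 69.6 and 73.7 CPM against 80.5 and 81.6 CPM, and Got2 in mitochondria at 262 and 271 CPM against 307 and 300 CPM. Their rises of 0.18 (SE 0.0602) and 0.19 (SE 0.0466) became -0.06 and -0.05 under TPM. Neither was called without DMSO replicate 1 (0.14 and 0.16), nor was Got1 without DMSO replicate 2 (0.22) or Pck2 without DMSO replicate 1 (0.15). Glud1, which joins glutamate to oxoglutarate, was at 188 and 185 CPM against 176 and 180 CPM, -0.07 (SE 0.0448, edgeR adjusted p = 0.223), and was called lower in 4 of 16 alternatives, with library size only, FPKM with either pseudocount and TPM (-0.30).

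**Figure D2:**
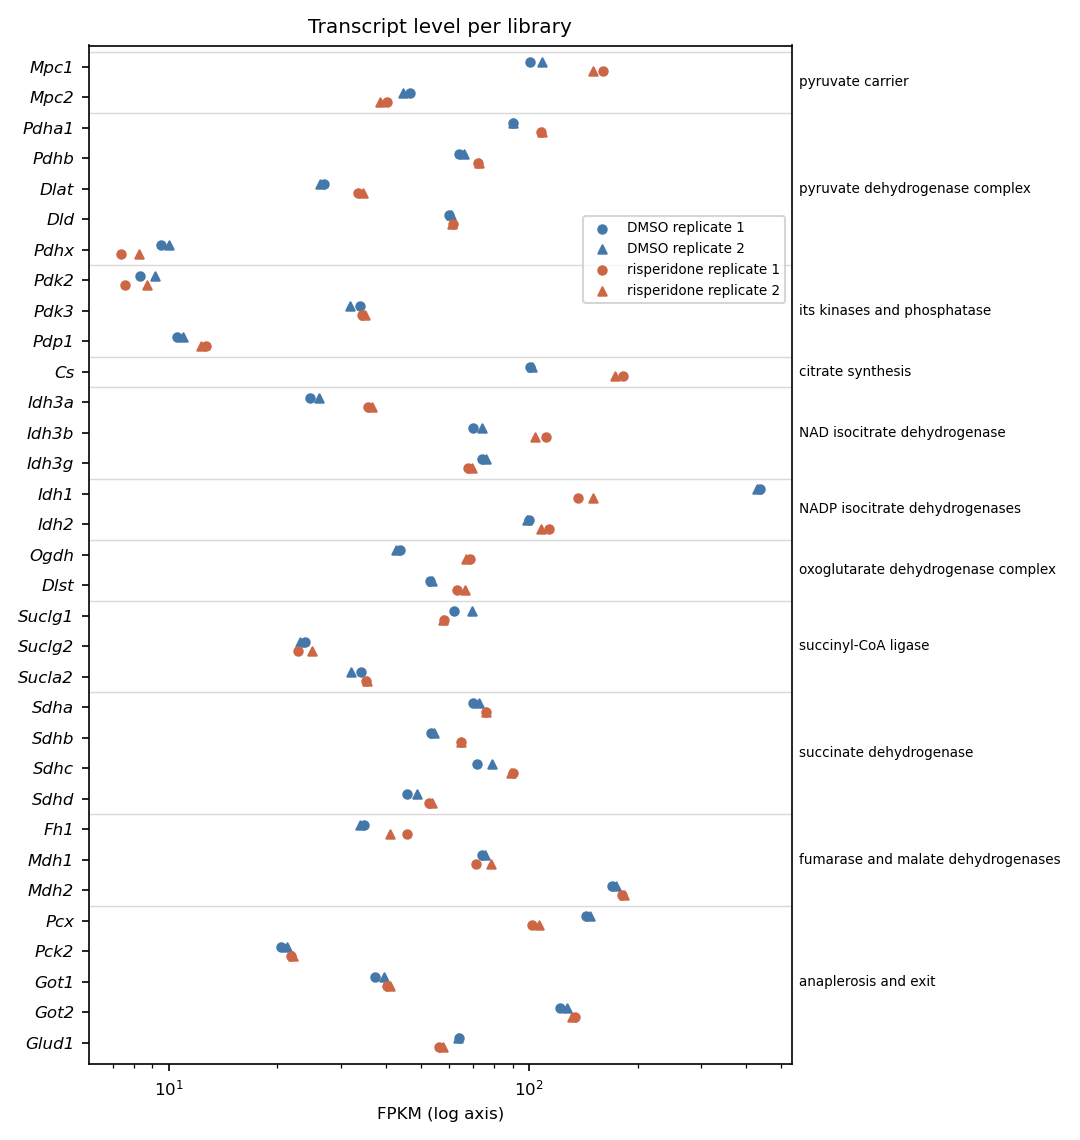
FPKM of each member in each of the 4 libraries (x axis, log scale), by role, with circles for replicate 1 and triangles for replicate 2. Idh1 is the highest member with DMSO (437 and 430 FPKM) and falls to 137 and 151 FPKM with risperidone, where Cs reaches 183 and 173 FPKM.

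Levels can be compared between genes only per length, so the order is given in FPKM. With DMSO the order began with Idh1 (437 and 430 FPKM), Mdh2 (170 and 174), Pcx (144 and 147) and Got2 (122 and 127), which stood apart from each other. With risperidone it began with Mdh2 (181 and 184 FPKM) and Cs (183 and 173), which overlapped, followed by Mpc1 (160 and 151), Idh1 (137 and 151) and Got2 (134 and 132). At the foot of both orders stood Pdp1, Pdhx and Pdk2, all at 7.37 to 12.7 FPKM. Of 32 neighbouring pairs in the order, 22 stood apart with DMSO and 10 overlapped, and 19 and 13 did with risperidone. Idh1 alone gave 18.4% and 17.7% of the members' summed FPKM with DMSO and 5.79% and 6.36% with risperidone, and Cs went from 4.22% and 4.21% to 7.71% and 7.30%. The members together made up 0.493% and 0.498% of all FPKM with DMSO and 0.434% and 0.451% with risperidone, but without Idh1 the ranges were 0.403% to 0.409% and 0.409% to 0.422%.

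By compartment, 1 of 3 cytosolic members rose (Got1), 1 fell (Idh1) and Mdh1 did not pass, with a median of 0.10, while Got1 was -0.06 under TPM. Of the 30 mitochondrial members, 22 rose, 2 fell (Pcx and Pdhx) and 6 did not pass, with a median of 0.22, where 32.1% of all genes rose and 32.2% fell. Under TPM 7 of them were called higher and 6 lower, against 15.0% and 51.7% of all genes. Fh1, which serves both compartments, is counted with the mitochondrial members. The ratio of cytosolic to mitochondrial counts inside a library does not depend on scaling between libraries. It is not corrected for trends with gene length or GC. The fitted log2 fold changes of Mdh1 and Mdh2 were 0.0974 and 0.184, and 0.0692 and 0.0998 with length offsets. For Idh1 to Idh2 the log2 ratio was 2.57 in both DMSO libraries and 0.71 and 0.92 in the risperidone libraries, a difference of -1.75. For Mdh1 to Mdh2 the libraries stood at -0.53 and -0.54 with DMSO and -0.68 and -0.57 with risperidone, a difference of -0.09 that was -0.033 without risperidone replicate 1 and -0.14 without risperidone replicate 2. For Got1 to Got2 the 2 groups overlapped, with a difference of -0.01. The pattern of a large cytosolic fall was thus seen in 1 of the 3 pairs. An exact two-sided permutation test over 2 against 2 libraries cannot go below p = 0.33, and that value was reached for the Idh1 and Mdh1 pairs, with p = 1 for the Got1 pair.

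Other cytosolic enzymes next to the cycle are outside the member list. Aco1, a cytosolic aconitase that also acts as an iron-responsive RNA-binding protein, was at 56.0 and 54.3 CPM with DMSO and 17.2 and 22.6 CPM with risperidone, and fell by 1.47 (SE 0.0946, edgeR adjusted p = 3.39e-07). Of the malic enzymes, the cytosolic form rose and a mitochondrial form fell. Me1, the cytosolic NADP form, was at 83.0 and 80.0 CPM against 110 and 107 CPM (0.41, SE 0.0522), and Me2, a mitochondrial NAD form, at 45.7 and 41.3 CPM against 27.4 and 27.5 CPM (-0.67, SE 0.0665). Their log2 ratio moved from 0.91 to 1.98.

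**Figure D3:**
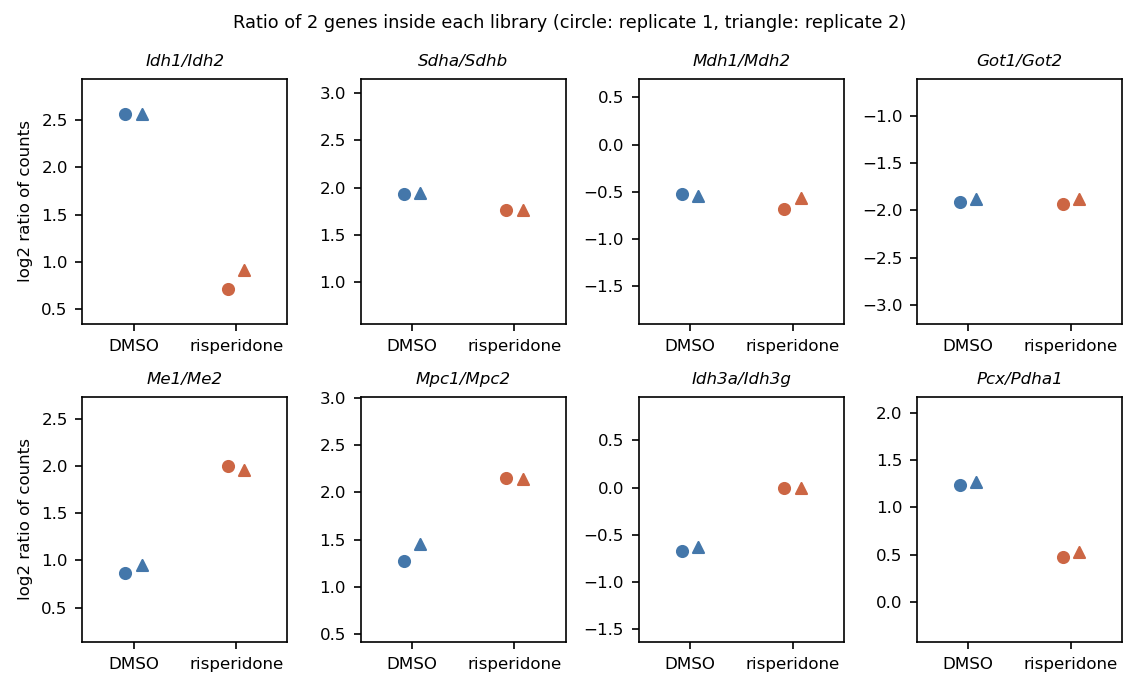
Log2 ratio of the counts of 2 genes inside each library, in 8 panels whose y axes span the same width, for DMSO and risperidone (circle, replicate 1; triangle, replicate 2). Risperidone minus DMSO is -1.75 for Idh1/Idh2 and 1.07 for Me1/Me2, and Got1/Got2 overlaps.

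Other within-library ratios of members also stood apart between the treatments. That of Pcx to Pdha1, which sets side by side 2 fates of pyruvate in mitochondria, was 1.24 and 1.26 with DMSO and 0.48 and 0.53 with risperidone, a difference of -0.75. That of Pck2 to Pcx differed by 0.58 and that of Idh2 to Idh3a by -0.35. The ratios of Suclg2 to Sucla2, Sdhc to Sdhd and Pdha1 to Pdhb differed by -0.09, 0.08 and 0.11, the first by -0.030 without risperidone replicate 1 and -0.14 without risperidone replicate 2. That of Pdk2 to Pdk3 overlapped (-0.18, exact permutation p = 0.667), with -0.066 without DMSO replicate 2, -0.097 without risperidone replicate 1 and -0.30 without DMSO replicate 1. For the other ratios of this paragraph, and for those of Mpc1 to Mpc2, Idh3a to Idh3b, Idh3a to Idh3g, Sdha to Sdhb and Me1 to Me2, the exact permutation p was 0.33, the smallest possible.

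Beyond the members, 44 genes of neighbouring steps were listed, of which 39 were tested. In that list 15 rose (38.5%), 11 fell (28.2%) and 13 did not pass, with a median of 0.05, shares near the 32.1% and 32.2% of all genes. Under TPM 8 were called higher and 18 lower, where 15.0% and 51.7% of all genes were. The kinases of pyruvate dehydrogenase split. Pdk1 was at 244 and 229 CPM with DMSO and 142 and 172 CPM with risperidone, and fell by 0.59 (SE 0.0759), while Pdk4 was at 420 and 391 CPM against 585 and 547 CPM, a rise of 0.48 (SE 0.0550). With Pdk3 slightly higher, within the limits given above, and Pdk2 not passing, the 4 kinases of the family therefore did not move as one. Pdp2, the second phosphatase, rose by 0.46 (SE 0.159, edgeR adjusted p = 0.0249) from 6.58 and 5.54 CPM to 8.17 and 8.55 CPM, a call lost without DMSO replicate 2 (0.35).

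Next come Acly, which did not pass, and the largest falls and rises of the remaining list. Acly, which cleaves exported citrate in the cytosol, was at 216 and 215 CPM with DMSO and 214 and 228 CPM with risperidone, overlapping (0.04, SE 0.0489, edgeR adjusted p = 0.518, and -0.20 under TPM). Slc25a10, the mitochondrial dicarboxylate carrier, fell by 1.42 (SE 0.112), from 88.6 and 80.5 CPM to 26.9 and 36.3 CPM. Ldha, which turns pyruvate into lactate, was at 1827 and 1768 CPM with DMSO and 826 and 905 CPM with risperidone, a fall of 1.05 (SE 0.0563, edgeR adjusted p = 1.15e-07). For both genes the risperidone libraries lay below both controls, with no overlap. Slc25a13, an aspartate-glutamate carrier, fell by 0.45 (SE 0.0896). Of the remaining list, the largest rises past the threshold were Sdhaf3, an assembly factor of succinate dehydrogenase (0.82, SE 0.161), Pcca, a propionyl-CoA carboxylase subunit (0.47, SE 0.0603), and Mcee, methylmalonyl-CoA epimerase (0.46, SE 0.136). Mcee was not called without DMSO replicate 1 (0.46), DMSO replicate 2 (0.47) or risperidone replicate 1 (0.33).

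Pck1, the cytosolic counterpart of Pck2, rests on 1 library. It had 9 and 0 counts with DMSO and 3 and 342 with risperidone, the 342 in the library with kidney transcripts. Its log2 fold change was 5.32 (edgeR adjusted p = 0.00931) with that library and -0.48 (edgeR adjusted p = 0.784) without it. Me3 was below the level tested, at 0.889 and 0.730 CPM against 2.11 and 1.74 CPM.

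**Figure D4:**
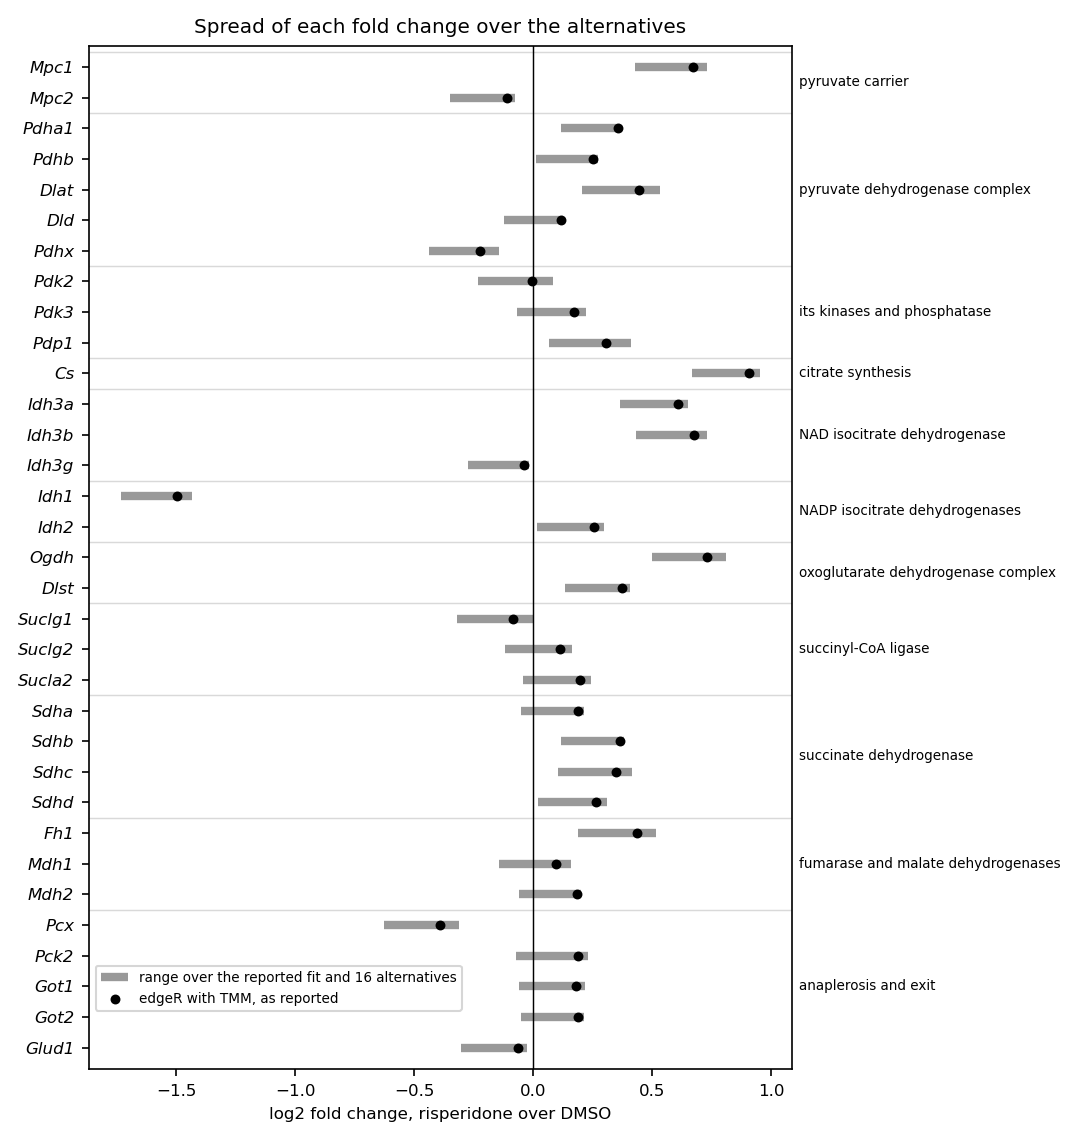
Range of each member's log2 fold change over the reported fit and 16 alternatives (grey bars; x axis, risperidone over DMSO), with the reported value as a point. The bars of Cs, Ogdh, Idh3a, Idh3b, Mpc1, Dlat and Fh1 stay right of 0 and those of Idh1 and Pcx left of it, and those of Dld, Mdh1, Mdh2, Got1 and Got2 cross it.

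Over those alternatives, 7 members kept their call of higher throughout (Cs, Idh3a, Idh3b, Ogdh, Fh1, Dlat and Mpc1) and 2 their call of lower (Idh1 and Pcx), and Pdk2 was never called. Of the 26 called, 15 higher and 3 lower members kept their sign in all 6 scalings tried. The others, such as Got1, Got2, Mdh2 and Sdha, were small enough to change sign with the scaling.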

How the data were processed

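mRNA of differentiated 3T3-L1 cells, 2 libraries with DMSO and 2 with risperidone, was sequenced by the authors on MGISEQ-2000. The submitters' processing notes name Bowtie2, RSEM, DESeq2 and GRCm38.p6, without versions or settings, and strand use was not given in the sources used here. RSEM divides reads between near-identical copies, so members with pseudogene copies are less certain. The expected counts, FPKM and TPM are as deposited by the authors, without replicate pooling. The authors' mean and comparison columns were not used.

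Counts were rounded. Testing took in every gene averaging 1 FPKM or more and used edgeR 4.0.16 under R 4.3.3 (TMM, quasi-likelihood F-test, two-sided, Benjamini-Hochberg over 10243 genes, threshold 0.05). Each standard error is the size of the log2 fold change over the root of its F. The printed CPM are TMM-scaled. Total counts were 16374119 and 15883712 for DMSO and 16269448 and 15977936 for risperidone. Intervals and floors cover counting error only. The scripts were tested on simulated data. The alternatives used limma 3.58.1 on log2(value + 1) of FPKM and TPM, and on log2(FPKM + 0.1), which understate changes of low genes, DESeq2 1.42.0, other scalings, filters, length and GC offsets, a replicate block and each library left out. A fit with 1 library left out has 1 library in that group, so its spread comes from the other group alone. The members and lists were chosen with earlier results of these data known. Every member is named, as are cytosolic or mitochondrial partners, and the 3 largest changes in each direction of the neighbouring list. Some results of that list are not reported here.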

Additional observations from a re-analysis of the deposited data

How the results depend on the processing

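Members called higher numbered 23, and 15 with library size only, 7 with limma on TPM and 15 with limma on FPKM with either pseudocount (1 or 0.1). Members called lower numbered 3, and 6, 7 and 7 in the same settings, and 5 with length offsets or with length and GC offsets, the last added after seeing the data. Leaving out 1 library at a time gave 17 to 24 higher and 2 to 3 lower, beside 2666 to 3310 and 2725 to 3350 of all 10243 genes, and DESeq2 18 and 2, beside 2639 and 2653.

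Under TPM the sign turned for Dld (-0.12), Suclg2 (-0.12), Sucla2 (-0.043), Sdha (-0.050), Mdh1 (-0.14), Mdh2 (-0.058), Pdk3 (-0.066), Pck2 (-0.070), Got1 (-0.061), Got2 (-0.052) and Acly (-0.20). Under FPKM it turned for Mdh1 (-0.0012 with either pseudocount) and Acly (-0.058 and -0.059), and with library size only for Acly (-0.056). Leaving out libraries turned the sign of Pdk2 (-0.10 to 0.085), Acly (-0.011 to 0.085), Pck1 (-0.48 to 10.46) and the Got1 to Got2 ratio (-0.036 to 0.017). The cause was not tested.

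With the replicate number as a replicate block, 22 members were higher and 3 lower, and 3292 and 3321 of all genes. Same-numbered libraries share only a number, and their deviations correlated at -0.11 across genes. Crossed numbers, added after seeing the data, gave 23 and 3 members and 3474 and 3519 genes. The lowest value of a member in a library was 7.37 FPKM, and 2 libraries a group limit what the ratios can show.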

Other observations

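Carbon also enters the cycle as propionyl-CoA and as ketone bodies, and the genes below, apart from Pcca and Mcee, were chosen after their values were seen. In the propionate route to succinyl-CoA, Pcca and Mcee rose, with the limits on Mcee given above, whereas Mut, methylmalonyl-CoA mutase, was at 45.7 and 41.5 CPM with DMSO and 32.9 and 39.2 CPM with risperidone and fell by 0.27 (SE 0.0827, edgeR adjusted p = 0.0135). Mut was not called without DMSO replicate 1 (-0.20) or risperidone replicate 1 (-0.15). Pccb, the other carboxylase subunit, was at 19.2 and 20.6 CPM against 16.7 and 18.4 CPM and did not pass (-0.18, SE 0.0953, edgeR adjusted p = 0.117). Oxct1, which activates ketone bodies for oxidation, rose from 185 and 192 CPM to 254 and 249 CPM (0.41, SE 0.0457, edgeR adjusted p = 1.63e-05).

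Nnt, the mitochondrial transhydrogenase that makes NADPH, was at 104 and 102 CPM with DMSO and 80.4 and 81.3 CPM with risperidone and fell by 0.35 (SE 0.0518, edgeR adjusted p = 0.000148). Glul, glutamine synthetase, was at 736 and 737 CPM against 563 and 560 CPM (-0.39, SE 0.0465, edgeR adjusted p = 2.74e-05).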
